A study of Homo sapiens with 6 samples.

Results

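The JmjC histone demethylases described here are 10 genes, KDM3A, KDM3B, KDM4A, KDM4B, KDM4C, KDM5B, KDM2A, KDM2B, KDM6B and JMJD6, taken by symbol from a table of 60569 gene names. Each symbol had 1 row, and all 10 genes were among the 13185 tested. The RNA came from MDA-MB-453 cells, a long-established line from a human breast carcinoma of luminal, apocrine type. Cells were transfected either with a control vector (3 libraries, the controls) or with a construct that overexpresses ZNF207, a zinc finger protein of the mitotic spindle checkpoint (3 libraries, the construct libraries), and both groups therefore went through transfection. No source used here gives the promoter of the construct, the time of harvest, or whether the cells were pooled or a clone. The replicates are described as independent biological replicates of 1 cell line. The comparison asks how these transcripts differ when ZNF207 is overexpressed.

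JmjC demethylases remove methyl groups from lysines with iron, molecular oxygen and 2-oxoglutarate, and release succinate and carbon dioxide. Because oxygen is a substrate, these enzymes depend on oxygen supply, as do the prolyl hydroxylases that mark the HIF (hypoxia-inducible factor) alpha subunits for destruction. Several of their own genes are HIF targets, KDM3A and KDM4B being the textbook examples. KDM5B was first described as a gene raised in breast tumours.

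Values are FPKM, fragments scaled by transcript length and library total, so that levels can be compared between genes. FPKM summed to 589360 to 612711 per library, and 13061 to 13231 genes reached an FPKM of 1. The number of reads is unknown. ZNF207 stood at 69.2, 67.0 and 63.7 FPKM in control replicates 1 to 3 and at 885, 786 and 750 FPKM in construct replicates 1 to 3, as labelled. Luminal markers of the line were present, with FOXA1 between 129 and 155 FPKM over the 6 libraries. None of 6 blood and endothelial markers passed the filter on low values, and the only fibroblast marker of 6 that did was COL1A1. Of 5 basal markers only EGFR passed. The summed FPKM of the basal list was 3.86 to 4.64 in controls and 2.80 to 3.17 in construct libraries. KRT5 was listed at 0 in 5 libraries and KRT14 and KRT6A each in at least 1 library of both groups. EGFR itself averaged 3.998 ± 0.375 and 2.81 ± 0.182 FPKM (SD, n = 3 each, limma adjusted p = 0.228). Of the luminal markers KRT19 averaged 1833 ± 112 and 1571 ± 48.5 FPKM and FGFR4 52.2 ± 3.50 and 62.9 ± 8.30 FPKM (adjusted p 0.196 and 0.293). The part of these differences in the results below was not tested.

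The promoter windows of KDM3A, KDM4B and KDM4C, which were lower in the construct libraries, are shown first, with those of their paralogues KDM3B, whose groups overlapped, and KDM4A, which was higher. Each window is the 250 bases before a RefSeq transcription start (GRCh38.p14), 5′ to 3′ along the gene. Capitals mark ACGTG or GCGTG on either strand, which together are the core of the hypoxia response element that HIF binds. Where ACGTG matches on both strands the capitals read CACGTG, which is also an E-box core and occurs in 6.34% of all windows of this length.
KDM3A (chr2:86441121-86441370, plus strand): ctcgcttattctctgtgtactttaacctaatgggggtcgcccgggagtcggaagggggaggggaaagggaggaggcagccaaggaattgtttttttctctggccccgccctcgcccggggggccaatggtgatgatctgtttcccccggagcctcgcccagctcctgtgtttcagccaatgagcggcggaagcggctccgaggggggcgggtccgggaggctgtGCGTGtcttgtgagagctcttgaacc
KDM3B (chr5:138352435-138352684, plus strand): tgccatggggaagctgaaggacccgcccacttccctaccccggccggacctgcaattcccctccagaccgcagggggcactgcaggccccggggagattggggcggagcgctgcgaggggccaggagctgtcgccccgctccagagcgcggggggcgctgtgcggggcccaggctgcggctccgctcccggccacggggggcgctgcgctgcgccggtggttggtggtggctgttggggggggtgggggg
KDM4B (chr19:4968863-4969112, plus strand): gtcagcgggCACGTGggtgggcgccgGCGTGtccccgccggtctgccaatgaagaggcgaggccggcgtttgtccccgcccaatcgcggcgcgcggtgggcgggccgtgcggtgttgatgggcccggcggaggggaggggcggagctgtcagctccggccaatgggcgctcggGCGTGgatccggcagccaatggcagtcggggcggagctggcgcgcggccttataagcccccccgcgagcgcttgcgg
KDM4C (chr9:6757723-6757972, plus strand): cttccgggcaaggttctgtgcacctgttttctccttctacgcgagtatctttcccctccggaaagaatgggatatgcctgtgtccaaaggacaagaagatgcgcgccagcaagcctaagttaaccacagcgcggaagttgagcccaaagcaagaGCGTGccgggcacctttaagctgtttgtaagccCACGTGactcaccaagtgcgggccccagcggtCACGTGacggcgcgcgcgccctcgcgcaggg
KDM4A (chr1:43649899-43650148, plus strand): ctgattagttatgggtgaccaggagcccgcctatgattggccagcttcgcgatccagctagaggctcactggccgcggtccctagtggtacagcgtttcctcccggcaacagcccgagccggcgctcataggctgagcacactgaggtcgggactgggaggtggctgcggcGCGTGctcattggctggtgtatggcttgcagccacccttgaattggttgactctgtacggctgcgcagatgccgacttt

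RefSeq gives 2 starts for KDM3A, and the files do not say which one is used. The window printed is that of the first, and the windows overlap and hold the same single GCGTG match, whose first base lay 26 bases before the first start and 116 before the other. The KDM4B window held 2 ACGTG matches that overlap in 1 CACGTG, and 2 GCGTG matches. The KDM4C window held 4 ACGTG matches in 2 CACGTG hexamers, and 1 GCGTG match. This window lies inside the KDM4C gene, which starts at 6720863 in GENCODE v29, and the start used in these cells is not given. The printed KDM3A window likewise lies inside its gene, which starts at 86440647 in GENCODE v29. The last part of the KDM3B window also lies inside its gene, which starts there at 138352596. KDM4A had 1 GCGTG match and KDM3B had none of either kind. Other members whose groups overlapped also held GCGTG matches, in windows not printed. KDM2A had 3 in its first window and 0 in its second. KDM5B had 1, and KDM6B had 1 in its first window and 0 in its second. RefSeq gives 4 starts for KDM2B, whose windows differ in their matches (0, 1, 1 and 2, all GCGTG), and none of these is printed. At least 1 of these motifs occurred in 11 of the 15 windows found for 9 of the members. In all, 43.2% of 35116 promoter windows of this length hold one, so a match is a description of the sequence only. The sequence table had no entry matched to JMJD6.

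Of the 10 transcripts, KDM3A, KDM2B, KDM4B and KDM4C were lower in every construct library than in every control, and KDM4A was higher in every one. The other 5 overlapped between the groups. In RNA from whole cultures, fewer cells that express a gene and less RNA per cell cannot be told apart. None of the 10 passed the test over all genes (limma, adjusted p under 0.05), in a comparison where 0.212% of tested genes did (28 of 13185). Of these 28, 7 were higher and 21 lower, and it was 8 and 12 with quantile scaling and 6 and 11 with median-of-ratios scaling. With an unadjusted p under 0.05, KDM3A, KDM2B and KDM4B made 3 lower members beside 0 higher ones, against 7.03% of all tested genes lower and 5.08% higher. Construct libraries lay wholly below controls in 4 of 10 members and wholly above in 1, against 10.4% and 7.61% of all tested genes. The estimate was below 0 in 7 of 10 members and in 52.4% of all tested genes. The median log2 change of the members was -0.07, and over all tested genes it was -0.01. The summed FPKM of the 10 genes was 290.0 to 304 in controls and 272 to 278 in construct libraries.

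**Figure D1:**
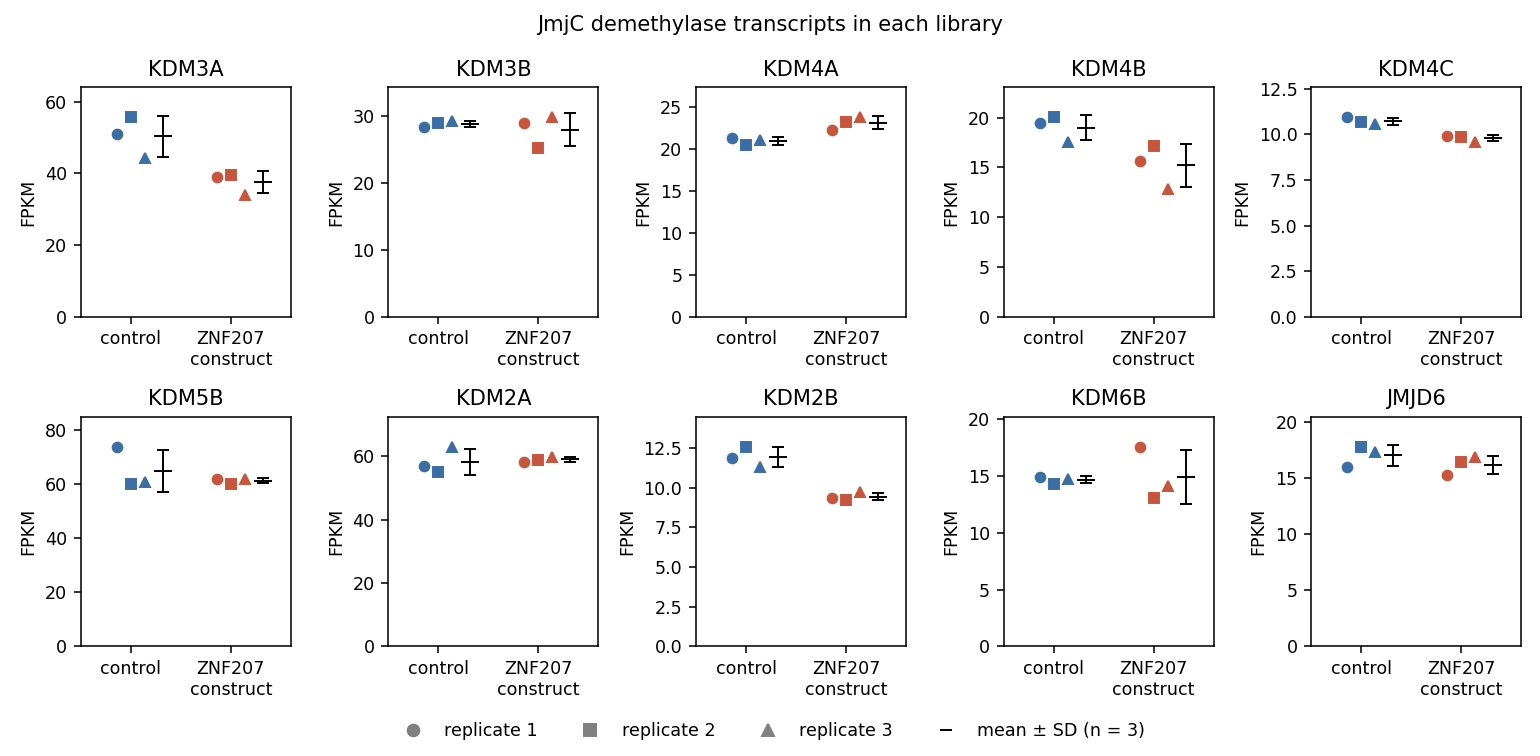
FPKM (vertical axis, from 0, a separate scale for each gene) of the 10 JmjC genes in controls and construct libraries. Symbols are libraries by replicate number and black bars are the mean ± SD of 3 libraries. KDM3A, KDM4B, KDM4C and KDM2B sit lower without overlap in the construct libraries, KDM4A sits higher without overlap, and the other 5 overlap.

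KDM3A and KDM3B take mono- and dimethyl marks off lysine 9 of histone H3, and KDM3A also acts in spermatogenesis and energy metabolism. KDM3A (chromosome 2, 86440647 to 86492716, plus strand, GRCh38) stood at 51.0, 55.7 and 44.4 FPKM in control replicates 1 to 3 and at 39.1, 39.5 and 34.0 FPKM in construct replicates 1 to 3. The lowest control lay above the highest construct library, and the lowest library of each group was its replicate 3. The means were 50.3 ± 5.66 and 37.5 ± 3.07 FPKM (SD, n = 3 each), a ratio of 0.746. The log2 change was -0.41 (SE 0.09, 95% interval -0.62 to -0.21, limma adjusted p = 0.108, unadjusted p = 0.00127), which ranked 155 of 13185 genes by p. An exact two-sided permutation test gave p = 0.1, and 3 libraries per group cannot give less. KDM3A thus had the largest change of the 10 members and did not pass the adjusted threshold.

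KDM3B (chromosome 5, 138352596 to 138437028, plus strand) stood at 28.3, 28.96 and 29.2 FPKM in controls and at 28.98, 25.2 and 29.8 FPKM in construct libraries. Its groups overlapped, with 1 construct library below all controls and 1 above them. The log2 change was -0.04 (95% interval -0.21 to 0.12, limma adjusted p = 0.86), and it was 0.03 without construct replicate 2. The interval of this paralogue leaves room for a change in either direction. Within a library the ratio of KDM3A to KDM3B was 1.80, 1.92 and 1.52 in controls and 1.35, 1.57 and 1.14 in construct libraries. Construct replicate 2 (1.57) lay above control replicate 3 (1.52), so that this ratio overlapped between the groups (log2 difference -0.38, exact permutation p = 0.2, adjusted over 6 ratios 0.3).

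KDM4A, KDM4B and KDM4C act on trimethylated and dimethylated lysine 9 and lysine 36 of histone H3. None of the 3 passed the test; the estimates of KDM4B and KDM4C were below 0 and that of KDM4A was above 0. KDM4B (chromosome 19, 4969113 to 5153595, plus strand) stood at 19.4, 20.03 and 17.6 FPKM in controls and at 15.6, 17.1 and 12.8 FPKM in construct libraries. The gap between the groups was narrow, from 17.6 FPKM in control replicate 3 to 17.1 FPKM in construct replicate 2, and construct replicate 3 was the lowest library. Its means were 19.0 ± 1.29 and 15.2 ± 2.16 FPKM (log2 change -0.31, SE 0.10, 95% interval -0.54 to -0.08, limma adjusted p = 0.27). Without construct replicate 3 the log2 change was -0.20 (adjusted p = 0.563).

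KDM4C (chromosome 9, 6720863 to 7175648, plus strand), often gained in copy number in breast cancer, had the lowest control level of the 10. It stood at 10.9, 10.7 and 10.6 FPKM in controls and at 9.88, 9.84 and 9.59 FPKM in construct libraries. The difference was small and the spread within each group smaller still, with an SD of 0.190 and 0.158 FPKM. The log2 change was -0.12 (SE 0.08, limma adjusted p = 0.563). Its exons share 135 bases with the non-coding gene AL354707.1 on the same strand, which reached 6.26 FPKM.

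KDM4A (chromosome 1, 43650158 to 43705515, plus strand), the most abundant of the trio in these cells, stood at 21.3, 20.4 and 21.1 FPKM in controls and at 22.2, 23.2 and 23.7 FPKM in construct libraries. It was the only member with all construct libraries above all controls. The log2 change was 0.13 (SE 0.06, 95% interval -0.01 to 0.28, limma adjusted p = 0.434). Of its exon bases 40.2% also belong to AL451062.3, a gene model on the same strand that was listed at 0 in all 6 libraries, and 8.97% to the antisense gene KDM4A-AS1, which reached 0.792 FPKM. How reads of these models were assigned is not given, and the KDM4A value is uncertain to that extent.

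The ratios of KDM4B and KDM4C to KDM4A within a library did not overlap between the groups. The ratio of KDM4B to KDM4A was 0.912, 0.981 and 0.834 in controls and 0.704, 0.737 and 0.541 in construct libraries (log2 difference -0.47). The ratio of KDM4C to KDM4A was 0.514, 0.523 and 0.502 in controls and 0.444, 0.424 and 0.404 in construct libraries (log2 difference -0.27). These ratios do not depend on how a library is scaled. The exact permutation p was 0.1 for each, the smallest possible, and 0.2 when adjusted over the 6 ratios.

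KDM2A and KDM2B remove the dimethyl mark from lysine 36 of histone H3 and bind unmethylated CpG islands through a CXXC zinc finger, and KDM2B also brings a Polycomb complex there. KDM2B (chromosome 12, 121429097 to 121581015, minus strand) stood at 11.9, 12.6 and 11.3 FPKM in controls and at 9.36, 9.24 and 9.70 FPKM in construct libraries. All construct libraries lay close together below the lowest control. The means were 11.9 ± 0.626 and 9.43 ± 0.240 FPKM (log2 change -0.31, SE 0.08, 95% interval -0.49 to -0.13, limma adjusted p = 0.153, unadjusted p = 0.0033). Among the members only KDM3A had a smaller p. On the opposite strand RNF34, at up to 21.2 FPKM, shares 439 exon bases with KDM2B, or 3.22% of them, and without strand the reads there cannot be told apart.

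KDM2A (chromosome 11, 67119269 to 67258087, plus strand) stood at 56.7, 54.9 and 62.9 FPKM in controls and at 58.3, 58.8 and 59.7 FPKM in construct libraries, which lay inside the control range. Its log2 change was 0.02 (95% interval -0.12 to 0.16, limma adjusted p = 0.929), and it was -0.02 without control replicate 2. KDM2A was thus the far more abundant gene of this pair in both groups. The ratio of KDM2B to KDM2A was 0.210, 0.229 and 0.180 in controls and 0.161, 0.157 and 0.162 in construct libraries, without overlap (log2 difference -0.36, exact permutation p = 0.1, adjusted over 6 ratios 0.2).

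**Figure D2:**
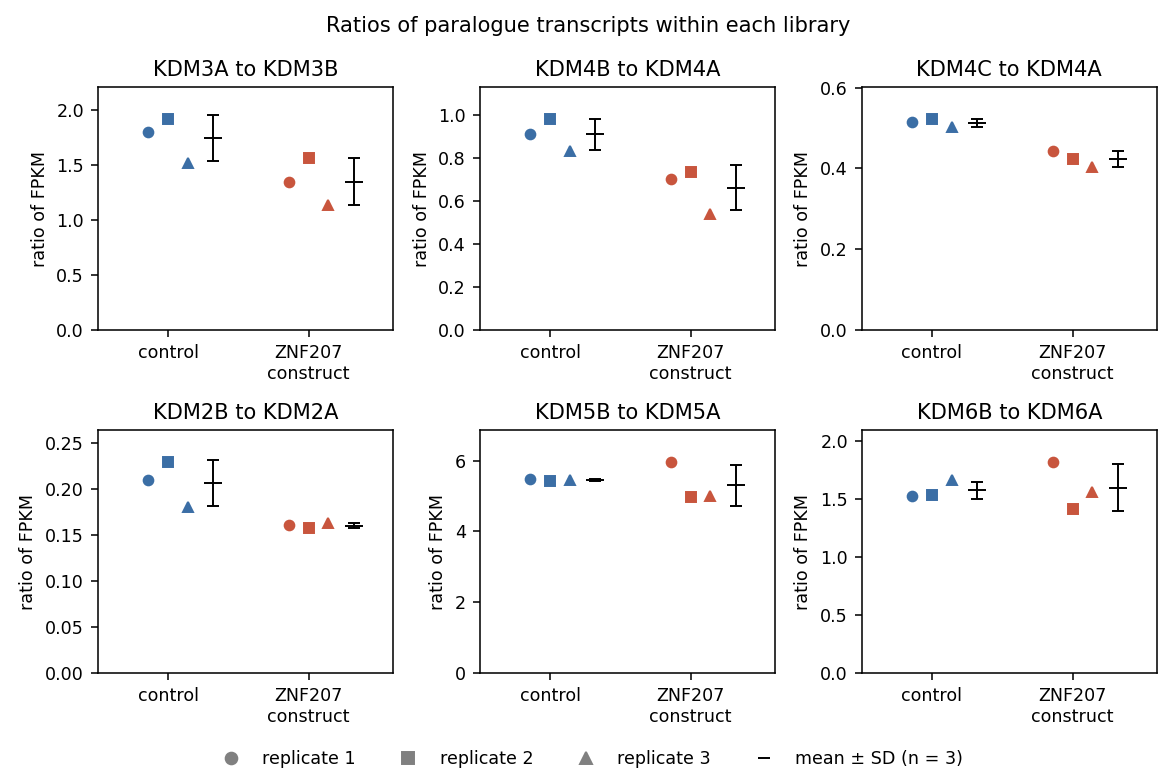
Ratio of the FPKM of paralogues within each library (vertical axis, from 0, a separate scale for each pair) in controls and construct libraries. Symbols are libraries by replicate number and black bars are the mean ± SD of 3 libraries. The ratios of KDM4B and KDM4C to KDM4A and of KDM2B to KDM2A are lower in all 3 construct libraries, and the other 3 ratios overlap.

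KDM5B removes methyl marks from lysine 4 of histone H3 and is known as a luminal gene in the breast. It had the highest control mean of the 10 members (chromosome 1, 202724495 to 202809470, minus strand). Its levels were 73.8, 60.1 and 60.9 FPKM in controls and 61.8, 60.2 and 61.8 FPKM in construct libraries. Control replicate 1 stood above the other 5 libraries, which were within 60.1 to 61.8 FPKM. The log2 change was -0.08 (95% interval -0.25 to 0.10, limma adjusted p = 0.745), and it was 0.02 without control replicate 1. The ratio of KDM5B to its paralogue KDM5A was 5.48, 5.43 and 5.44 in controls and 5.96, 4.96 and 4.99 in construct libraries, on both sides of the controls.

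KDM6B, which removes methyl marks from lysine 27 of histone H3 and is induced by inflammatory signals in macrophages, stood at 14.9, 14.3 and 14.7 FPKM in controls and at 17.5, 13.0 and 14.05 FPKM in construct libraries (chromosome 17, 7839904 to 7854796, plus strand). The construct libraries spread to both sides of the controls, with replicate 1 the highest. The log2 change was 0.01 (95% interval -0.22 to 0.24, limma adjusted p = 0.974), and it was -0.10 without construct replicate 1. Its ratio to KDM6A, the other lysine 27 demethylase, averaged 1.57 ± 0.0762 in controls and 1.598 ± 0.204 in construct libraries (SD, n = 3 each).

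JMJD6, a JmjC enzyme known chiefly as a lysyl hydroxylase of splicing factors, with a debated arginine demethylase activity, stood at 16.0, 17.8 and 17.4 FPKM in controls and at 15.3, 16.4 and 16.9 FPKM in construct libraries (chromosome 17, 76712832 to 76726799, minus strand). The groups overlapped, since 2 construct libraries lay above control replicate 1. Its log2 change was -0.07 (95% interval -0.24 to 0.10, limma adjusted p = 0.757).

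By level, the controls ran from KDM5B (64.9 ± 7.70 FPKM) and KDM2A (58.2 ± 4.20 FPKM) through KDM3A, KDM3B, KDM4A, KDM4B, JMJD6 and KDM6B to KDM2B and KDM4C (10.7 ± 0.190 FPKM). Neighbours in this order did not overlap between libraries, except KDM5B with KDM2A, KDM2A with KDM3A, and KDM4B with JMJD6. By the means of the construct libraries 2 pairs stood in the other order, JMJD6 above KDM4B (16.2 and 15.2 FPKM) and KDM4C above KDM2B (9.77 and 9.43 FPKM), but neither order held in every library. KDM4B was above JMJD6 in construct replicates 1 and 2 and below it in replicate 3 (12.8 and 16.9 FPKM), and KDM2B was above KDM4C in construct replicate 3 (9.70 and 9.59 FPKM). KDM3A made up 15.3% to 18.8% of the summed FPKM of the 10 genes in controls and 12.5% to 14.5% in construct libraries.

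A list of other human JmjC genes, which does not cover the whole family, offers a comparison. Of 19 such genes, which include KDM5A, KDM5C, KDM6A, PHF8, PHF2, JMJD1C and the asparaginyl hydroxylase HIF1AN, 0 passed the test over all genes (limma), 0 passed at an unadjusted p under 0.05, and in 0 of 19 were the groups apart. Of all tested genes 12.1% had an unadjusted p under 0.05. Construct libraries lay wholly below controls in 10.4% of all tested genes and wholly above in 7.61%. The median log2 change of the 19 was -0.03, with a range of -0.18 to 0.14. The smallest p-values were those of HR, a corepressor needed for hair growth, at 15.9 ± 0.314 and 14.4 ± 1.68 FPKM (SD, n = 3 each, limma adjusted p = 0.57), and RIOX2, a nucleolar hydroxylase, at 15.5 ± 1.37 and 17.3 ± 1.86 FPKM (adjusted p = 0.601). The difference between these genes and the 10 members was not tested.

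**Figure D3:**
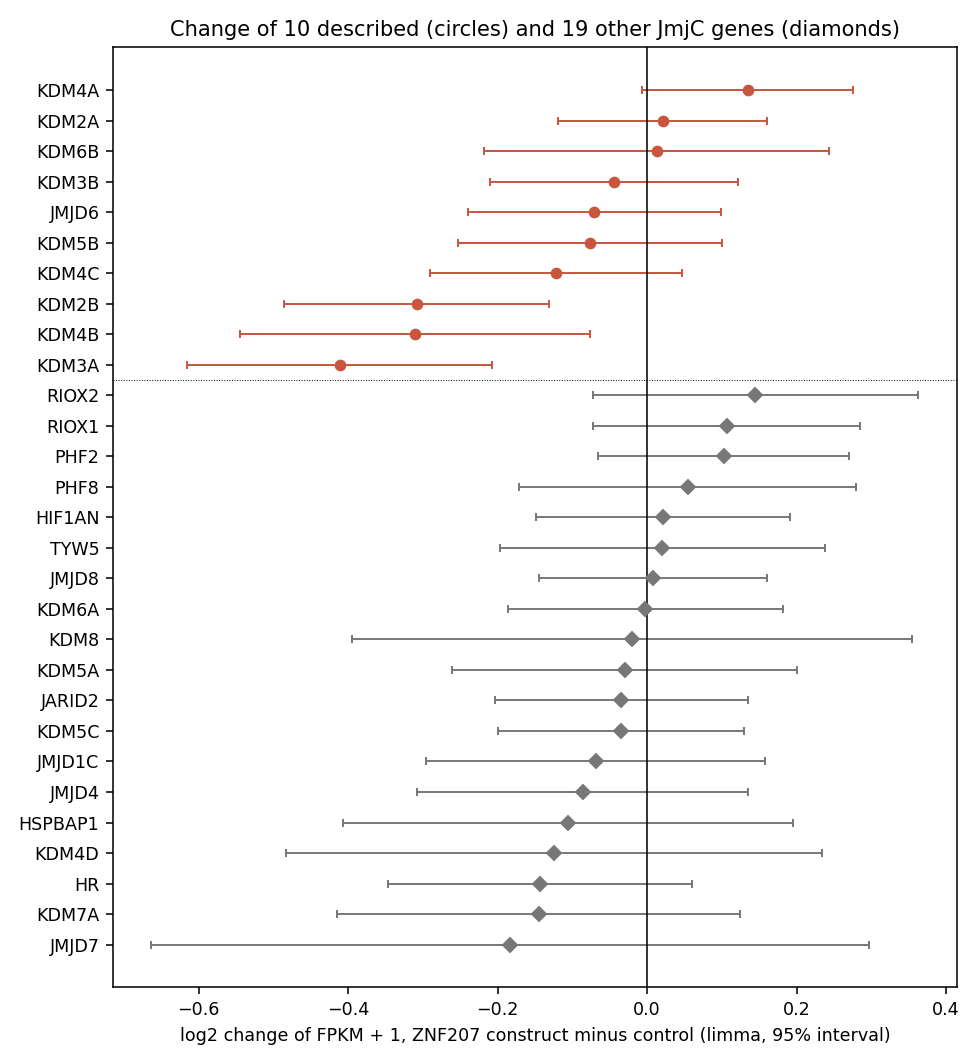
Log2 change of FPKM + 1 between construct and control libraries (horizontal axis, points) with the 95% limma interval (bars), for the 10 members (circles, above the dotted line) and 19 other JmjC genes (diamonds). The intervals of KDM3A, KDM4B and KDM2B lie below 0, and all other intervals reach across 0.

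The flavin-dependent demethylase KDM1A, which needs no 2-oxoglutarate, its relative KDM1B and the CoREST corepressors numbered 5 genes. Of these, 0 passed the adjusted test (limma). At an unadjusted p under 0.05, 1 was lower, against 7.03% of all tested genes. This was RCOR2, a CoREST subunit, at 4.53 ± 0.462 FPKM in controls and 2.48 ± 0.434 FPKM in construct libraries (log2 change -0.67, limma adjusted p = 0.0883). KDM1B stood at 20.7 ± 0.924 and 23.4 ± 1.86 FPKM (adjusted p = 0.431). RCOR2 therefore had a larger estimate than any of the 10 members.

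Enzymes that write the marks erased by the members showed small differences. Among 6 methyltransferases of lysine 9, 10 genes of the lysine 4 complexes, 5 of lysine 36 and 5 genes of the lysine 27 group, 0 passed the adjusted test (limma). By an unadjusted p under 0.05, 2 genes were lower and 0 higher, against 7.03% and 5.08% of all tested genes. The lower ones were NSD2, a lysine 36 dimethyltransferase, at 57.7 ± 0.536 and 51.9 ± 0.752 FPKM (SD, n = 3 each, limma adjusted p = 0.27), and EZH2, the Polycomb methyltransferase, at 31.8 ± 0.905 and 28.4 ± 1.59 FPKM (adjusted p = 0.352). The lysine 9 methyltransferases EHMT1 and EHMT2 stood at 26.1 ± 1.20 and 28.6 ± 1.24 FPKM and at 29.5 ± 0.842 and 27.5 ± 1.16 FPKM, in opposite directions (adjusted p 0.469 and 0.581). DPY30 (72.8 ± 0.882 and 66.6 ± 5.08 FPKM), KMT2A (28.3 ± 2.497 and 25.8 ± 0.285 FPKM), NSD1 (36.1 ± 2.20 and 39.2 ± 2.56 FPKM) and EZH1 (9.54 ± 0.728 and 8.60 ± 0.679 FPKM) were the other genes with 1 of the 2 smallest p-values of their list. None of these 4 reached an unadjusted p under 0.05. JARID2, a JmjC protein without demethylase activity, is counted both among the 5 genes of the lysine 27 group and among the 19 other JmjC genes.

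Enzymes that make or use up 2-oxoglutarate and succinate, the cosubstrate and product of the members, numbered 15, of which 0 passed the adjusted test (limma). By an unadjusted p under 0.05, 4 of them were higher and 1 was lower, against 5.08% and 7.03% of all tested genes. OGDH, which oxidises 2-oxoglutarate in the citric acid cycle, averaged 23.1 ± 0.783 FPKM in controls and 28.7 ± 0.308 FPKM in construct libraries (log2 change 0.30, adjusted p = 0.0883). GLUD1, which forms 2-oxoglutarate from glutamate, stood at 44.5 ± 2.85 and 53.1 ± 3.90 FPKM (log2 change 0.25, adjusted p = 0.208). These 2 had the smallest p-values of the list. The median over the 15 was 0.00, with a range of -0.32 to 0.30. Estimates were below 0 in 7 of the 15 and above 0 in 8.

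Other dioxygenases that share the chemistry were also compared. Of 11 TET and ALKBH family genes, which act on DNA and RNA, 0 passed the adjusted test (limma), with ALKBH5, an RNA demethylase, at 103 ± 6.05 and 90.6 ± 3.58 FPKM and ALKBH4 at 19.8 ± 1.64 and 23.1 ± 1.04 FPKM (adjusted p 0.247 and 0.316). Of the 4 HIF prolyl hydroxylase genes 0 passed and 2 were lower at an unadjusted p under 0.05, against 7.03% of all tested genes. These were EGLN1, at 40.1 ± 4.44 and 30.3 ± 2.39 FPKM (log2 change -0.39, limma adjusted p = 0.117), and EGLN3, at 9.68 ± 0.647 and 7.89 ± 0.0769 FPKM (log2 change -0.26, adjusted p = 0.251). Both are HIF targets themselves. The estimate of EGLN1 was close to that of KDM3A, neither passed the adjusted threshold, and a link between them was not tested.

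A list of 28 HIF targets outside the JmjC family had 10 members that fell (limma, adjusted p under 0.05), against 0.159% of all tested genes. In this list 0 rose, and its median log2 change was -0.48. At an unadjusted p under 0.05 (limma), 27 of the 28 were lower, against 7.03% of all tested genes. Construct libraries lay wholly below controls in 27 of the 28, against 10.4% of all tested genes. All 28 estimates were below 0, as were 52.4% of all tested genes. The 3 with the smallest p were ALDOC, LOX and ENO2, with log2 changes of -0.79, -0.95 and -0.84 (adjusted p 0.00383, 0.00414 and 0.00644). This fall was already known in these data and is no independent support for the members. The mean log2 level of the list was 6.85, 7.04 and 6.84 in control replicates 1 to 3 and 6.41, 6.47 and 6.24 in construct replicates 1 to 3. KDM3A had its highest value in control replicate 2 and its lowest in construct replicate 3, as this list did, and so had KDM4B. KDM4A had its lowest and highest values in the same libraries, in the opposite direction. These libraries, control replicate 2 and construct replicate 3, were also the extremes of the first principal component of all tested genes (-16.3 and 18.5). That component, the main axis of difference between the libraries, held 31.4% of the variance. A shared highest and lowest library is therefore a description only and is not particular to this list. The other separated members did not share both libraries: KDM2B was lowest in construct replicate 2 and had its highest construct value in replicate 3, and KDM4C was highest in control replicate 1. The part of HIF activity in the levels of the members was not tested.

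**Figure D4:**
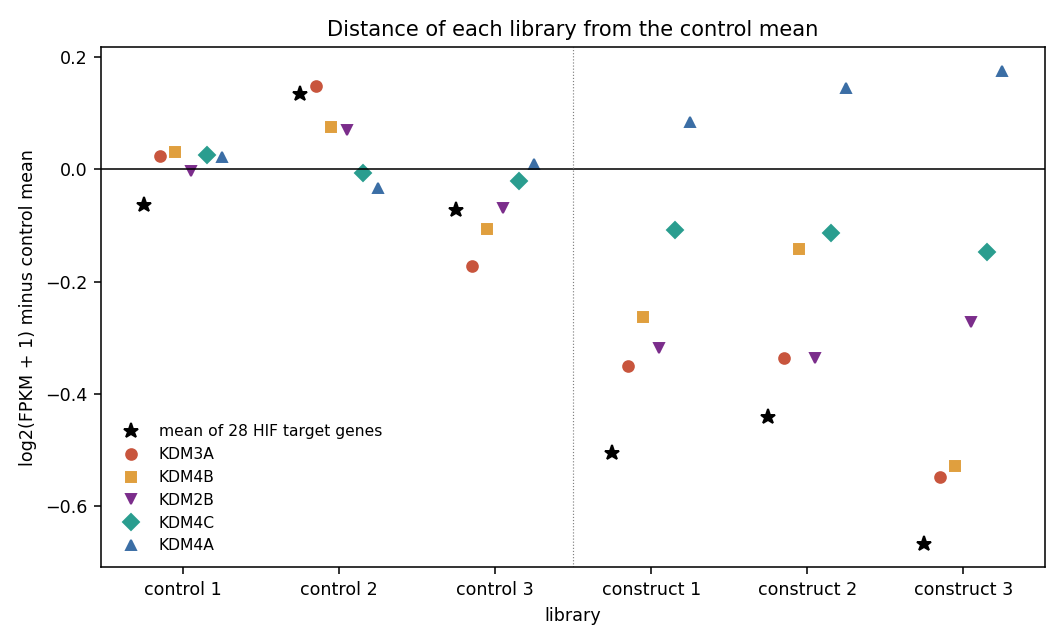
Log2(FPKM + 1) of each library minus the control mean (vertical axis) for KDM3A, KDM4B, KDM2B, KDM4C and KDM4A and for the mean of 28 HIF target genes (stars), by library. In construct replicate 3 KDM3A lies at -0.55 and KDM4B at -0.53, both farther below the control mean than in the other construct libraries, while KDM4A lies at 0.18.

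The transcripts most like KDM3A over the 6 libraries, by Pearson correlation of log2 levels among 11739 tested genes whose mean FPKM was at least 2, were HILPDA (r = 0.996), PXMP2, FUT11, PFKFB4 and C19orf48 (r = 0.992). HILPDA, a lipid droplet protein, stood at 149, 170 and 123 FPKM in controls and at 97.8, 96.4 and 82.7 FPKM in construct libraries (limma adjusted p = 0.0548). PFKFB4, a regulator of glycolytic flux, stood at 60.4, 66.1 and 46.8 FPKM and at 34.9, 38.2 and 26.0 FPKM (adjusted p = 0.0798). PFKFB4 already belongs to the HIF target list above. For KDM4B the most similar were BAGE2 (r = 0.995), TUBA4A, C4orf3, PPAN and ZNF22 (r = 0.989), where BAGE2 belongs to a family of near-identical copies and its value is uncertain. With 6 libraries in 2 groups, such values mostly reflect the difference between the groups and are given as descriptions.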

How the data were processed

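RNA of 6 MDA-MB-453 libraries was compared, 3 per group. The deposited table gives FPKM for each library, with no pooling. Its column names, which differ from the sample titles, gave the group and, by their last digit, the replicate number. The submitters' processing notes name build hg38, Bowtie2, RSEM 1.3.1 and DESeq2 1.4.5, and no source used here gives their roles, the annotation, strand or filters.

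A repeated name kept its row of highest mean. The 13185 genes at an FPKM of at least 1 in 3 or more libraries were analysed as log2(FPKM + 1), which understates changes of low genes. FPKM is not a count, so limma 3.58.1 in R 4.3.3 (variance trend, two-sided, Benjamini-Hochberg over all tested genes) was used, and it was tested on simulated data. P-values measure the spread between these libraries. Depth is unknown: among 1152 low genes no ratio between 2 libraries was held by more than 0.694%, so whole reads could not be recovered. No 2 libraries shared over 8 identical tested values. Paralogue ratios were compared by exact permutation (scipy 1.17.1). Coordinates are from GENCODE v29 and promoters from RefSeq. Near copies (at least 95% identity over 200 bases) were sought with BLAST 2.17.0, and only genes overlapping KDM4A were found.

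The members and lists were chosen with earlier results of these data known. Named are all members, ZNF207, up to 3 called genes of each list or else the 2 with the smallest p, paralogues in the ratios, and the 5 genes most like KDM3A and KDM4B. FOXA1 and the markers listed at 0 were named after their values were seen. The fit was repeated with another pseudocount, other filters, scalings, variance models and library weights, with a replicate block, and without each library.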

Additional observations from a re-analysis of the deposited data

How the results depend on the processing

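Over 16 alternatives the log2 change of KDM3A ran from -0.50 to -0.34 (limma adjusted p 0.0186 to 0.392). That of KDM2B ran from -0.34 to -0.27 and that of KDM4B from -0.40 to -0.20. That of KDM4C ran from -0.13 to -0.11 and that of KDM4A from 0.11 to 0.16. These 5 kept their direction, and so did JMJD6 (-0.11 to -0.03), whose groups overlapped. The groups of the 5 lay apart, so leaving out 1 library could not reverse them. Other filters, other variance models and the replicate block leave an estimate as it was. No member was called in 15 of the 16 alternatives. With the replicate number as a block 1 member, KDM3A, was called (adjusted p = 0.0186), and 145 genes in all were called against 28. The main fit did not take the numbers to pair the libraries. Deviations of same-numbered libraries from their group means correlated, across genes, at 0.14, 0.01 and 0.17 for replicates 1, 2 and 3. Libraries of unlike number gave values from -0.21 to 0.07. These values do not settle whether the numbers pair the libraries.

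Small estimates changed sign: KDM6B was at -0.0142 with array weights. With 1 library left out, KDM6B ran from -0.104 to 0.0956, KDM5B from -0.128 to 0.0179, KDM2A from -0.0189 to 0.0779 and KDM3B from -0.0900 to 0.0281. The log2 ratio difference of KDM5B to KDM5A ran from -0.132 to 0.000964 with 1 library left out, and that of KDM6B to KDM6A from -0.0820 to 0.0987. The other 4 ratios kept their direction under all 8 alternatives. The replicate block leaves each difference as it was. Leaving out 1 library could not reverse the ratios whose groups did not overlap. The number of genes called in all was 4 without a filter, 64 with the filter at an FPKM of 5, 17 with median-of-ratios scaling and 5 without a variance trend. It ran from 4 to 36 with 1 library left out, which also leaves fewer samples. The unknown depth gives no detection limit.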
